A study of Mus musculus with 6 samples.

Results

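The genes described here encode the proteins of the cytosolic ribosome, taken by gene name: every non-control probe named Rpl or Rps with a number (and at most a closing a, x or l), or named Rplp0, Rplp1, Rplp2 or Rpsa, with the S6 kinases left out. The rule found 80 genes, 49 of the large subunit and 31 of the small subunit, on 180 of the array's 55681 probes. RAW264.7, an established line of mouse macrophages, was kept for 4 h in DMEM medium (control, 3 samples) or treated for 4 h with AEPS at 50 µg/ml (3 samples). AEPS is a polysaccharide preparation from the root of the plant Actinidia eriantha. The labels name no genotype change in either group. They also do not state separate cultures, and a p-value here reflects only how far these samples spread, which may be technical.

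Each cytosolic ribosome joins a small subunit, which holds and decodes the mRNA, to a large subunit, which forms the peptide bonds. Ribosomal protein genes are among the most heavily transcribed genes of growing cells, and their mRNAs begin with a cytosine followed by a run of pyrimidines, the terminal oligopyrimidine (TOP) motif, through which the kinase mTOR and the binding protein LARP1 set how much of each mRNA is translated. In macrophages, translation of TOP mRNAs is a known point of control after activation, and a few ribosomal proteins also act away from the ribosome. An array measures the mRNA only.

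In each group the scanner data of replicates 1 and 2 were the same value for value, so such a pair counted as 1 sample and 4 distinct arrays remained, 2 per group. They lay on 2 slides with 1 control and 1 AEPS array each, named by slide below. The deposited table of the authors holds 3 distinct columns per group, and its replicate 3 pair of columns matched none of the scanner files. Of 59305 non-control spots, 55.4% to 58.7% were well above background on the 4 arrays. All 10 macrophage markers looked for, Cd68, Csf1r and Lyz2 among them, were well above background on all 4 arrays. Of 5 markers each of T cells, B cells, fibroblasts and epithelium, 3, 2, 2 and 0 were measured. Their part in the values below was not tested.

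Of the 80 genes, 78 passed the filter on dim probes (detected above background throughout the arrays of control, of AEPS or of both), 47 of the large and 31 of the small subunit. The 2 that did not were Rpl10l and Rpl39l, copies of Rpl10 and Rpl39 best known from testis. Rpl10l had probe signals of 2.7 to 36.1 over the 4 arrays, and Rpl39l of 2.8 to 6.5, not well above background. Each gene is given by the brightest of its probes, as the processed signal of the scanner, and changes are on the log2 scale, AEPS minus control, after each array was scaled to its 75th percentile. On this scale the ribosomal protein genes formed a narrow band a little below the median of all named genes. The large and the small subunit lay at the same place. Quantile normalization and the authors' deposited table put the band slightly above that median. The band ran from -0.65 (Rps3) to 0.40 (Rpl5), with a standard deviation of 0.20 over the 78 genes against 0.75 over 14889 named genes. None of the 78 lay beyond a 2-fold difference, where 11% of the named genes did. Other bright genes had a like spread: 186 other named genes as bright as 9 in 10 of the ribosomal protein genes had a standard deviation of 0.22. Their median change was -0.39, beside -0.32 for the 78, so the band did not lie below genes of like brightness. Of the 186, 1.61% lay beyond 2-fold.

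By limma, which was fitted on 25931 features and adjusted over all of them, 0 of 78 ribosomal protein genes passed an adjusted p of 0.05, beside 7.12% of all features. Higher calls made up 4.17% of the features and lower calls 2.94%. At an unadjusted p under 0.05 the count was 10 of 78, all lower in AEPS, beside 32.6% of all features. The lowest adjusted p of the 78 was 0.11. Standard errors of the log2 change ran from 0.13 to 0.31, with a median of 0.18, on 2 arrays per group. This fit leaves the slide out, so its standard errors also hold the difference between slides. Arrays of the same slide deviated together (correlation 0.62). With the slide as replicate block limma called 9 of 78 lower and 0 higher, beside 16.8% and 13% of all features.

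The subunits did not separate. Median log2 changes were -0.33 over the 47 large and -0.32 over the 31 small subunit genes, a difference of -0.0023. On slide 1 they were -0.25 and -0.24, and on slide 2 -0.39 and -0.36. All named genes had a median of -0.11. Values of the 2 AEPS arrays lay below both control values in 32 of 47 large and 21 of 31 small subunit genes (68.1% and 67.7%), beside 38.1% of all features. Only Rpl5 lay above both control values (1.28% of the 78, beside 25.2% of all features), and 24 overlapped. The sign differed between the slides in 7 genes.

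**Figure D1:**
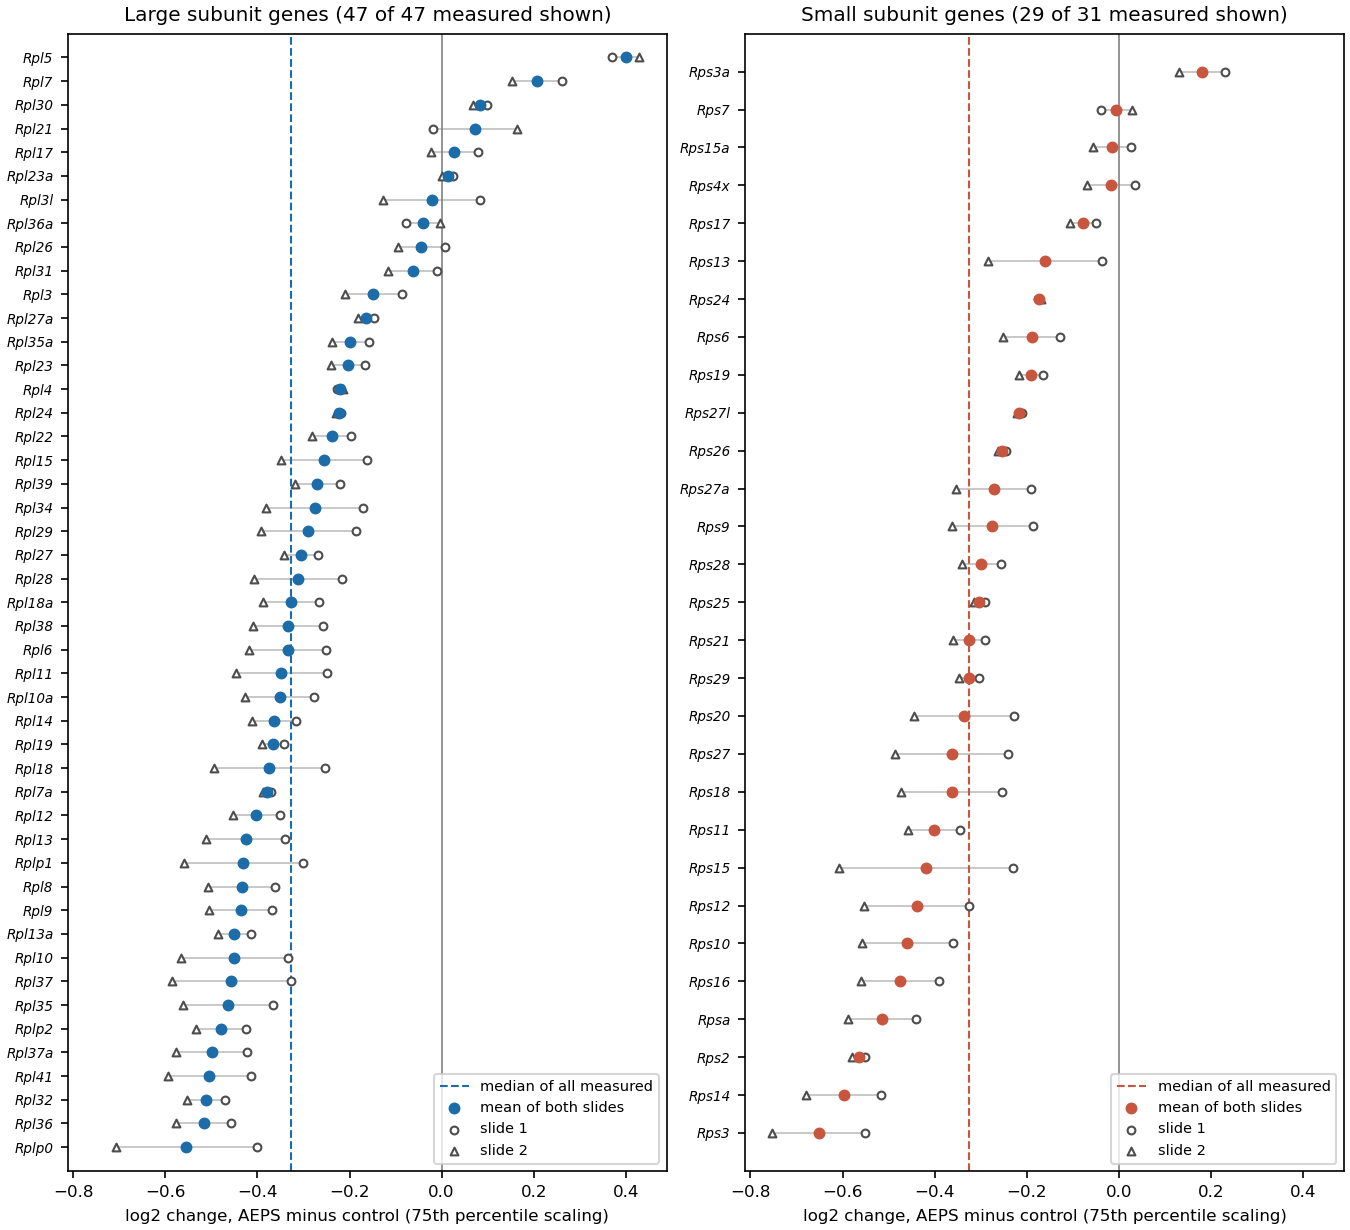
Log2 change (AEPS minus control, 75th percentile scaling) of 47 large subunit genes (left) and all but 2 of 31 small subunit genes (right), with the mean of both slides as filled points, slide 1 as open circles, slide 2 as open triangles and the median of all measured genes of the subunit as a dashed line. Both medians lie near -0.33, and over all 78 genes 71 means lie below 0; under spike-in scaling all 78 lie above 0.

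Whether these genes lay below or above 0 turned on how the arrays were scaled. As scanned, the signal was higher in AEPS than in control on both slides for 76 of 78 genes, with median ratios of 1.21 on slide 1 and 1.30 on slide 2. The 75th percentile of the arrays themselves was higher in AEPS, at 575 and 488 signal units against 401 and 287 in control, which turns these ratios into negative log2 changes. Scaled instead to the 8 spike-in probes, whose RNA is added in fixed amounts, all 78 genes had changes above 0, with medians of 0.33 and 0.34 in the large and small subunit. The same scaling moved the median of all named genes from -0.11 to 0.56. It shifts all genes of an array by the same amount, so the place of the ribosomal protein genes below that median could not change. Under spike-in scaling, 3 of 78 genes were called higher by limma (Rpl5, Rpl7 and Rps3a, or 3.85%, beside 22.5% of all features) and 0 lower, beside 0.702%. After quantile normalization 59 of 78 were above 0, with medians of 0.06 and 0.05 beside -0.03 for all named genes, and limma called 0 of 78, beside 6.44% of all features higher and 4.81% lower. In such bulk samples, a difference in cell number and a difference in RNA per cell cannot be told apart, in either direction.

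**Figure D2:**
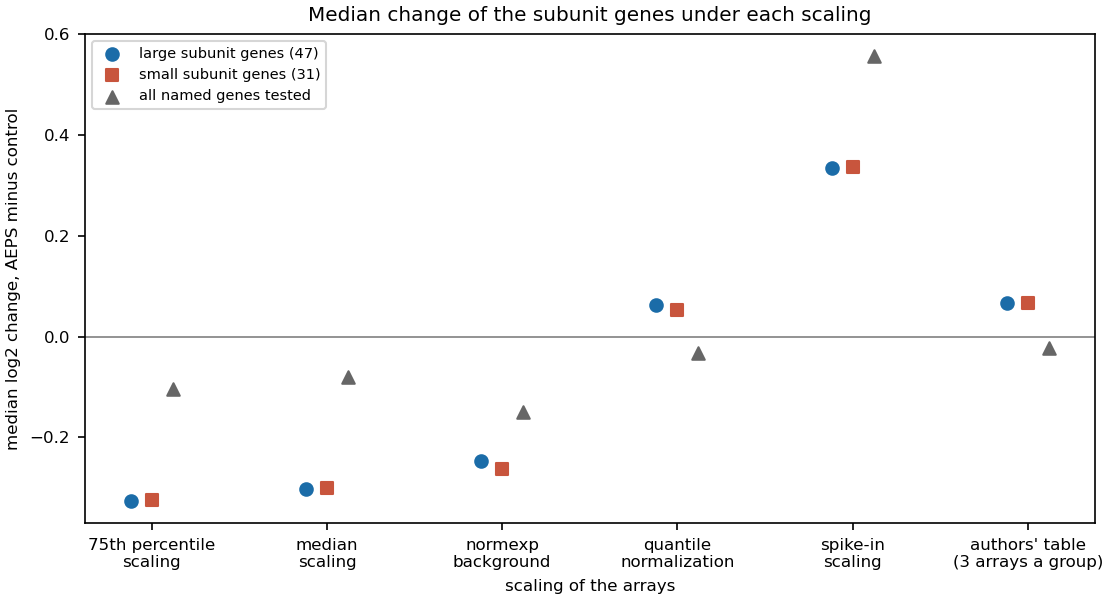
Median log2 change (AEPS minus control) of the large subunit genes, the small subunit genes and all named genes tested, under 6 ways of scaling the arrays. The subunit medians stay together under each. They lie at -0.33 and -0.32 with the 75th percentile, 0.33 and 0.34 with spike-ins and 0.07 and 0.07 in the authors' deposited table. The sign thus turns with the scaling. The 75th percentile, median and spike-in scalings each shift a whole array, so the difference between the subunits could not change among them.

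The order of the genes within the band was steadier than its place. Changes on slide 1 and slide 2 had a Pearson correlation of 0.92 and a Spearman correlation of 0.89 across the 78 genes. Genes are not independent replicates, and signal strength is shared between slides. Changes in the authors' deposited table were drawn in part from the same arrays, but its replicate 3 pair of columns was not. Against that pair the scanner changes had a Pearson correlation of 0.68 and a Spearman correlation of 0.59 (n = 78 genes).

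On the authors' deposited table, which holds log2 values of 3 samples per group, limma called 6 of 78 genes higher (7.69%, beside 17.1% of all features) and 2 lower (2.56%, beside 16.4%). The 6 were Rpl5, Rpl7, Rps3a, Rpl17, Rpl23a and Rps15a, and the 2 were Rps2 and Rps3. Each of the 8 had the same sign in the replicate 3 pair of columns, but that pair was among the columns used to call them. Groups did not overlap for 23 genes that were higher and 6 that were lower (29.5% and 7.69%, beside 23.4% and 24.7%). Without control replicate 2, AEPS replicate 2 or AEPS replicate 3 the count of 8 became 4, 4 and 5. The share of all features called fell as well, from 33.4% to 21.9%, 21.6% and 22.4%. Without control replicate 1, AEPS replicate 1 or control replicate 3 the count was 9, 7 and 7, beside 28.8%, 28.5% and 27.5%. Same-numbered samples deviated together. With the replicate number as a block, limma called 11 higher (14.1%, beside 23.5%), adding Rpl23, Rpl27a, Rpl30, Rps24 and Rps27a, and the same 2 lower (beside 26.4%). On the scanner arrays the slide as a replicate block gave 9 of 78 lower and 0 higher (11.5%, beside 16.8% of all features lower and 13% higher). Among these 9 were Rpl13a, Rpl32, Rpl36, Rplp2, Rps14, Rps2, Rps3 and Rpsa. In each of these counts except non-overlap, the share of ribosomal protein genes lay below that of all features.

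Rps3, a small subunit protein at the mRNA entry that also works in DNA repair and with the transcription factor NF-kappa-B, was lowest. Its signals were 230248 and 212222 in control and 225463 and 214276 in AEPS. The AEPS signals were thus at the level of the controls, while those of 76 other genes were higher, and after scaling the groups did not overlap. The log2 change was -0.65 ± 0.19 (SE), with a limma adjusted p of 0.11. With the slide as replicate block the limma adjusted p was 0.044, and with normexp background correction 0.044. Rps3 was the only call of the 78 with normexp, beside 10.8% of all features lower and 7.29% higher. In the authors' deposited table Rps3 fell by 0.43 ± 0.06 (SE), at a limma adjusted p of 0.0058, with -0.37, -0.44 and -0.48 in the 3 pairs. Its 3 probes had changes of -0.65, -0.65 and -0.68 although 1 of them was far dimmer, at 2756 on the slide 1 control array. Under spike-in scaling, which shifts all genes alike and so cannot change their order, the change was 0.01 at a limma adjusted p of 0.97.

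Rps2, a core protein of the small subunit, had signals of 214378 and 183245 in control and 209914 and 208602 in AEPS. The change was -0.57 ± 0.18 (SE), at a limma adjusted p of 0.12. It was 0.038 with the slide as replicate block and 0.011 in the authors' deposited table, where Rps2 fell by 0.38 ± 0.07 (SE). A second Rps2 probe had a change of -0.20. The scanner annotation places it on chromosome 17 but over 1 Mb from the first.

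Rpl5 carries the 5S ribosomal RNA and, off the ribosome, can hold the p53 inhibitor MDM2. Its only probe had signals of 59339 and 46820 in control and 109976 and 107263 in AEPS. Both AEPS signals were above both controls by the widest ratio of the 78, 1.85 on slide 1 and 2.29 on slide 2. The log2 change was 0.40 ± 0.15 (SE), at a limma adjusted p of 0.17 on the scanner arrays. In the authors' deposited table Rpl5 rose by 0.50 ± 0.09 (SE), at a limma adjusted p of 0.0089, with 0.40, 0.53 and 0.57 in the 3 pairs. Rpl11, its partner in the 5S particle, lay with the rest at -0.35 ± 0.18 (SE), from 454159 and 411618 to 547911 and 513754. The change was 0.14 in the authors' deposited table at a limma adjusted p of 0.23.

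Rpl7, a large subunit protein, had signals of 160771 and 142657 in control and 276298 and 269875 in AEPS. Its change was 0.21 ± 0.18 (SE), and its 4 probes gave 0.13 to 0.30. Rpl7 rose by 0.44 ± 0.09 (SE) in the authors' deposited table, at a limma adjusted p of 0.014. Rps3a, a small subunit protein, had signals of 195393 and 165208 in control and 329174 and 307734 in AEPS. Its change was 0.18 ± 0.16 (SE), its 3 probes gave 0.18 to 0.30, and in the authors' deposited table Rps3a rose by 0.45 ± 0.07 (SE), at a limma adjusted p of 0.0054. Rpl5, Rpl7 and Rps3a were thus the upper end of the band in both sources, and all their probes lay above 0.

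The other upper members were Rpl30 (0.08), Rpl21 (0.07), Rpl17 (0.03), Rpl23a (0.01) and Rps7 (-0.01), none called on the scanner arrays. The Rpl21 probe was dim, with signals of 670 and 509 in control and 950 and 970 in AEPS. The median of the 78 genes on the slide 1 control array was 313605. In the authors' deposited table Rpl17 rose by 0.33 ± 0.07 (SE) and Rpl23a by 0.39 ± 0.07 (SE), at limma adjusted p of 0.016 and 0.013. Rps15a, in the same table, rose by 0.31 ± 0.07 (SE) at 0.025, from a change of -0.01 on the scanner arrays. Also low on the scanner arrays were Rps14 (-0.60), Rplp0 (-0.55), Rpl36 (-0.52), Rpsa (-0.51) and Rpl32 (-0.51). These 5 had changes between -0.12 and 0.01 in the authors' deposited table, and none was called there.

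Members with fixed roles were read whatever their values. The stalk proteins Rplp0, Rplp1 and Rplp2, which recruit elongation factors, had changes of -0.55, -0.43 and -0.48, and 0.01, 0.02 and 0.11 in the authors' deposited table. Rplp2 had signals of 563566 and 444644 in control and 602412 and 522527 in AEPS, and the lowest limma adjusted p of the 78. Without the block it was 0.11, and with the slide as replicate block 0.047. Groups of all 3 stalk genes did not overlap after 75th percentile scaling.

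Among proteins known for work outside the ribosome, Rpl13a, which silences inflammatory mRNAs in interferon-treated monocytes, had a change of -0.45 ± 0.14 (SE). Its signals were 299062 and 238729 in control and 321939 and 289818 in AEPS, and its limma adjusted p was 0.13, or 0.047 with the slide as replicate block. The authors' deposited table gave -0.15 at a limma adjusted p of 0.25. Rpsa, also known as a laminin receptor, had -0.51 ± 0.15 (SE), and Rps14 -0.60 ± 0.24 (SE). Rpl22, which binds its own paralog's mRNA, had -0.24 ± 0.14 (SE), Rpl23, which can bind MDM2, -0.20 ± 0.17 (SE), and Rps19, mutated in Diamond-Blackfan anaemia, -0.19 ± 0.17 (SE). None passed on the scanner arrays without the block.

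Rps6, the substrate of the S6 kinases, had signals of 296853 and 272462 in control and 389875 and 389491 in AEPS. After scaling its groups overlapped, with a change of -0.19 ± 0.20 (SE) and a limma adjusted p of 0.55. Rps27a, made as a fusion with ubiquitin, had signals of 493707 and 422942 in control and 620810 and 563272 in AEPS. Its change was -0.27 ± 0.16 (SE), while in the authors' deposited table it was 0.28, at a limma adjusted p of 0.084 without and 0.021 with the replicate block. Rpl4, a large core protein, had -0.22 ± 0.19 (SE).

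Where both paralogs of a pair named here were measured, both changes lay below 0. Rps27 and the p53-inducible Rps27l had changes of -0.36 ± 0.19 (SE) and -0.22 ± 0.16 (SE). Rpl3 and its muscle paralog Rpl3l had -0.15 ± 0.15 (SE) and -0.02 ± 0.20 (SE), the latter from signals of only 50 to 81. Rpl10 had -0.45 ± 0.21 (SE) and Rpl39 -0.27 ± 0.16 (SE), beside the unmeasured Rpl10l and Rpl39l. Rps4x had -0.02 ± 0.15 (SE), and no probe carried the name Rps4l. Ribosomal protein genes have many near-identical processed copies, and a probe may read several of them. By the scanner annotation, 13 of 179 placed probes, from 7 genes, lay on another chromosome than the gene or over 1 Mb from its other probes. For Rps27 and Rps29 this held for every placed probe.

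The change of a gene followed the signal of its probe. Across the 78 genes the Spearman correlation of the log2 change with the scaled control value was -0.75 and Pearson's was -0.49. Both quantities contain the control value. Over the 176 tested probes, the 141 with a slide 1 control signal of 100000 or more had a median change of -0.30. Those between 10000 and 100000 (15 probes) had 0.10, and those under 10000 (20 probes) 0.20. The highest signal of any of the 78 was 703479, 90.4% of the signal at which spots saturate, and no spot was flagged as saturated. The 186 other named genes of like brightness had a median change of -0.39, with 1 called, lower. The part of signal strength in the changes was not tested.

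**Figure D3:**
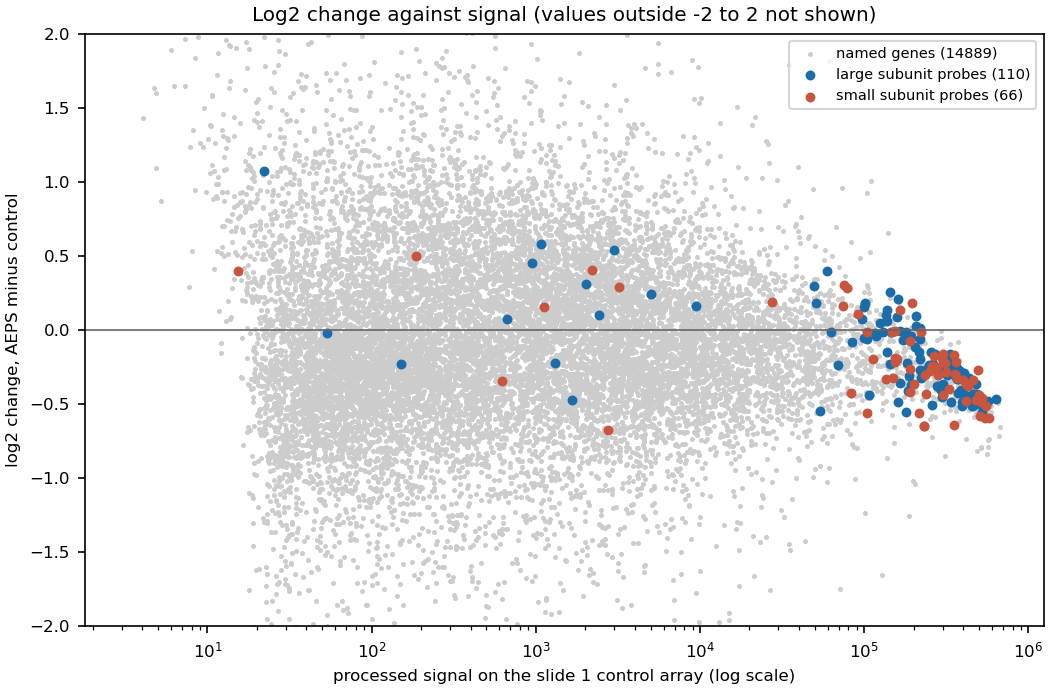
Log2 change (AEPS minus control, 75th percentile scaling) of 176 ribosomal protein gene probes and of 14889 named genes, against the processed signal on the slide 1 control array (log axis). The brightest ribosomal protein probes lie below 0, where other genes of like signal also lie, and probes under 10000 have a median of 0.20; the values shift upward under spike-in scaling.

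Probes of 1 gene with unlike signals also differed in their change. In 18 genes the brightest and the dimmest tested probe were at least 20-fold apart, and in 15 of these the dim probe lay downstream of the bright one along the gene. Probes are 60 bases long, and the first 30 bases of 2 such pairs, chosen as a small and a large subunit gene whose dim and bright probes had opposite signs, are shown with the bright probe before the dim probe.
Rps6 bright: tgtcctgcaacacaaatgccgacgtattgc
Rps6 dim: tggtgtgtatcacaagttagcctgtgtagc
Rpl14 bright: aaaggcggctggcaagaaagcgtgaggcta
Rpl14 dim: cagggggtaccatgacagtacaacagtgtc
On mm9, the build named for the scanner annotation, the whole Rps6 probes lie at chr4:86500748-86500807 and chr4:86500063-86500122 on the minus strand, the dim one 685 bases downstream. The Rpl14 probes lie at chr9:120483487-120483546 and chr9:120483689-120483748 on the plus strand, 202 bases apart. Exon and UTR positions on that build were not analysed here.

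The bright Rps6 probe had a change of -0.19 and the dim one, 148-fold dimmer, 0.40 ± 0.13 (SE). For Rpl14 the values were -0.36 and 0.24. Over the 18 genes the dim probe had the higher change in 16, with a median of 0.27 against -0.25 for the bright probe. The exceptions were Rps3, whose probes gave -0.65 and -0.68, and Rpl22, with -0.24 and -0.47. Over all 54 genes with several tested probes, the dimmest lay above the brightest in 42 (77.8%), in 39 of them on both slides. Among 3614 other genes with several tested probes, the dimmest lay above the brightest in 52.0%. Of 74 such genes as bright as most ribosomal protein genes, it did so in 51 of the 74 genes. With the dimmest probe of each gene, the medians of the large and small subunit were -0.23 and -0.22, and 21 of 78 genes were above 0.

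**Figure D4:**
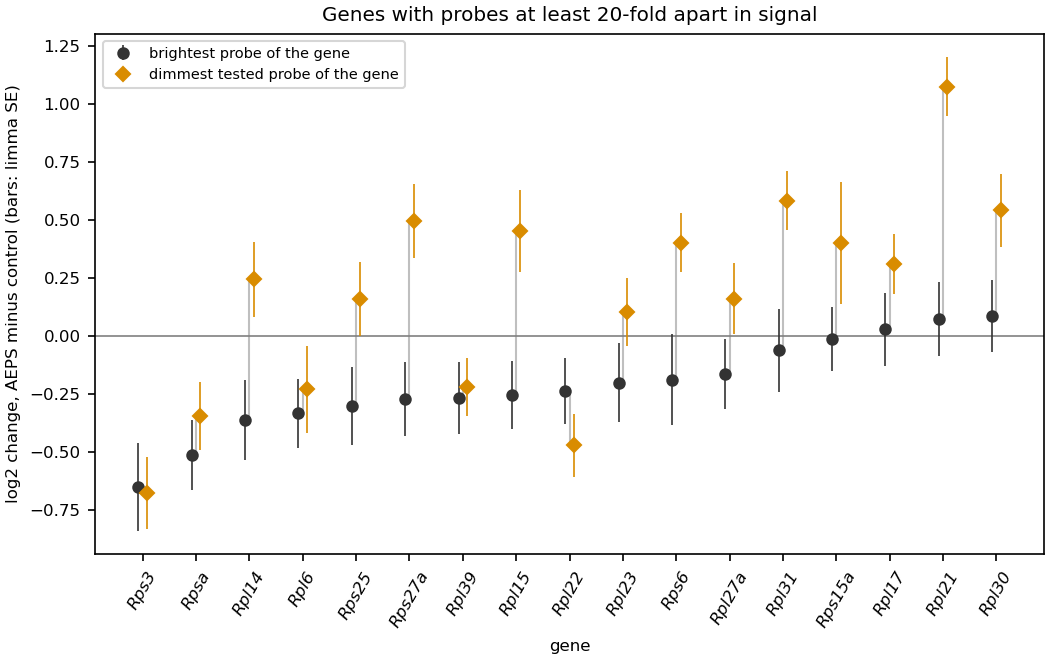
Log2 change (AEPS minus control, 75th percentile scaling) of the brightest probe (circles) and the dimmest tested probe (diamonds) in ribosomal protein genes whose probes were at least 20-fold apart in signal (all but 1 of 18 are drawn); bars are limma standard errors on 2 arrays per group. Over all 18 the dim probe is higher in 16, and Rps3 has both probes near -0.65; spike-in scaling raises both probes of a gene alike.

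When every probe was tested on its own, limma called 1 of 176, a probe of Rpl21 that was higher, beside 9.23% of all tested probes, 5.41% of them higher. It had signals of 22.1 and 16.5 in control and 68.0 and 58.1 in AEPS, a change of 1.07 ± 0.13 (SE) at an adjusted p of 0.030. The other Rpl21 probe, 690 bases upstream and 30.6-fold brighter, had 0.07 ± 0.16 (SE). The same probe made Rpl21 the only gene of the 78 called when each gene was given by its dimmest probe (beside 4.1% of all features higher) or by the one of median brightness (beside 4.18%).

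Promoters were read for what the members share that their names did not fix. RefSeq promoters (GRCm38.p6, 250 bases before to 50 after the annotated start) were matched for 60 of the 80 genes, 72 promoters in all. Around the start, 30 bases are shown for genes from both ends of the band and for 3 with fixed roles, as examples of starts with and without the pyrimidine run. Capitals mark the longest run of at least 5 pyrimidines that begins with C, and the 11th base is the annotated start.
Rps6 at chr4:86857348-86857377, minus strand: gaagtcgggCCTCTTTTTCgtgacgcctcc
Rplp2 at chr7:141447641-141447670, plus strand: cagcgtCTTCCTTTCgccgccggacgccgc
Rpl13a at chr7:45128726-45128755, minus strand: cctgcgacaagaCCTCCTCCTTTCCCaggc
Rps2 at chr17:24720053-24720082, plus strand: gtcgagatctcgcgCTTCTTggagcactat
Rps3 at chr7:99483690-99483719, minus strand: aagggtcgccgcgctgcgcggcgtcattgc
Rps3a at chr3:86142649-86142678, minus strand: gccggaagggcgaaagagcaagggtcacgt
Rpl5 at chr5:107900518-107900547, plus strand: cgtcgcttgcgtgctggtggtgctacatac
Rps6, Rplp2 and Rpl13a show runs of 10, 9 and 14 pyrimidines across or just after the start. Their changes were -0.19, -0.48 and -0.45. Rps2, at the lower end with -0.57, shows a shorter run of 6. Rps3, also at the lower end, and Rps3a and Rpl5, at the upper end, show none in this window. These starts are picked examples, and whether a run goes with the change of a gene was not tested. An annotated start can lie away from the start used in these cells.

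Within 30 bases either side of the start, a run of at least 8 pyrimidines beginning with C stood in 48.6% of the 72 promoters, against 18.2% of 32851 promoters. The letters CTTTCC stood on the gene strand of the same window in 18.1% against 2.89%, and CTCTTT in 15.3% against 2.29%. On the other strand the shares were 1.39% for both motifs, against 2.71% and 2.34%. CCGGAAG, which holds a core bound by ETS family factors, stood in 13.9% against 2% on the gene strand and 4.17% against 2.01% on the other. CTTTCC and CTCTTT can overlap. A match is a description of the letters and not a site.

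Genes around the ribosomal proteins were read from lists, each by its count and median on the scanner arrays. Ribosome biogenesis, the factors that cut, modify and assemble ribosomal RNA, had 9 of 49 measured genes higher and 0 lower by limma (beside 4.17% and 2.94% of all features), with 42 above 0 and a median of 0.39 beside -0.11 for all named genes. Bms1, a GTPase of the small subunit processome, rose by 1.56 ± 0.16 (SE), with signals of 269 and 224 in control and 1145 and 1117 in AEPS (limma adjusted p 0.029). Nop14, of the same processome, rose by 1.34, nucleolin (Ncl) by 1.19 and Utp14a by 1.1. With the slide as replicate block limma called 22 higher and 1 lower, beside 13% and 16.8% of all features. It called 32 higher and 2 lower in the authors' deposited table, beside 17.1% and 16.4%. The list's median was 0.42 in that table and 1.05 under spike-in scaling, so its sign held where that of the ribosomal protein genes turned. The list was also dimmer. Its brightest gene, Nhp2, had a signal of 162707 on the slide 1 control array, where the median of the 78 genes was 313605. Nhp2 had a change of -0.22. The next brightest were mixed: Nop56 (signal 62202) had 0.05, Nop2 (51795) 0.14 and Eif6 (49082) -0.19. A test of the difference between the lists was not made, and the part of signal strength in it was not tested.

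RNA polymerase I subunits and cofactors had 0 of 14 called and a median of 0.19. The 4 with the brightest probes, Ubtf, Polr1d, Polr1c and Znrd1, had -0.01, 0.06, -0.12 and 0.11. With the block 5 were called higher (beside 13% of all features), and 6 in the authors' deposited table (beside 17.1%), none lower. Genes of the mTOR pathway to ribosomal protein mRNAs had 0 of 18 called, a median of 0.23, and 5 higher and 2 lower with the block (beside 13% and 16.8% of all features). The counts were 8 higher and 4 lower of 18 in the authors' deposited table, beside 17.1% and 16.4%. Larp1, the TOP mRNA binding protein, had 0.26 ± 0.19 (SE) at a limma adjusted p of 0.40. The translation repressors Eif4ebp1 and Eif4ebp2 had -0.19 and -0.48, and Rptor, which brings substrates to mTOR, -0.48.

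Other genes listed for a TOP motif in their mRNA, most of them of translation, had 1 of 20 higher, the chaperonin subunit Cct4, which rose by 0.91 ± 0.14 (SE) at a limma adjusted p of 0.045. Their median was 0.03, with 10 of 20 above 0. With the block 5 were higher and 2 lower (beside 13% and 16.8% of all features), and 8 higher and 1 lower in the authors' deposited table (beside 17.1% and 16.4%). Ribosomal protein genes that the name rule missed had 0 of 7 measured called on the scanner arrays. Fau and Rack1, which belong to the mature ribosome, had -0.49 and -0.49, inside the lower part of the band, while Rpl22l1, the paralog of Rpl22, had -0.01. With the block 1 of the 7 was lower, and in the authors' deposited table none was called.

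**Figure D5:**
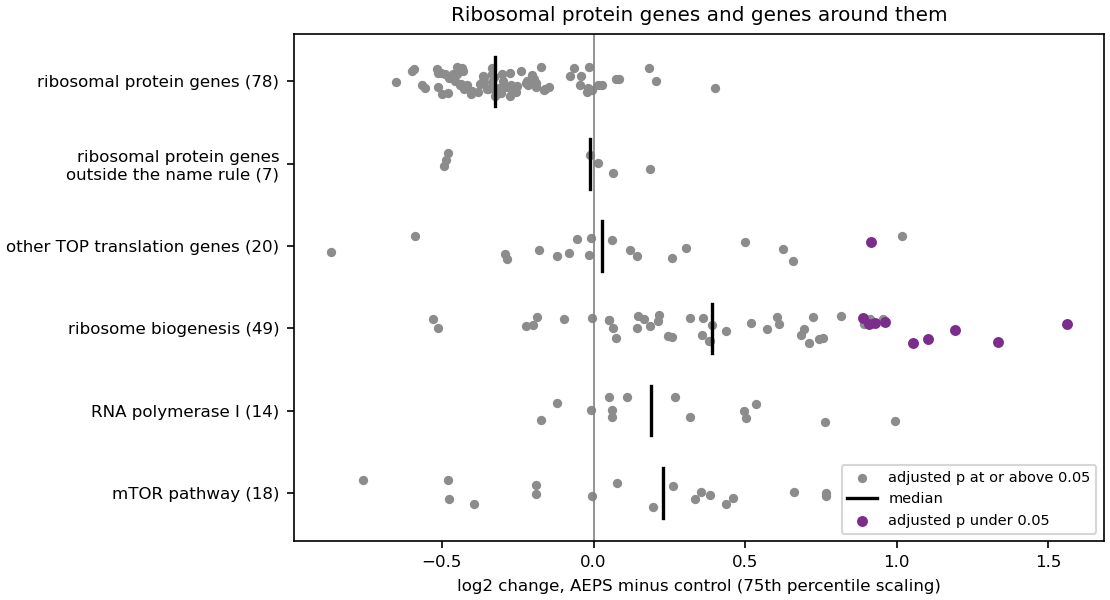
Log2 change (AEPS minus control, 75th percentile scaling) of single genes in the ribosomal protein set and in 5 lists around it; each point is a gene, black bars are medians, and purple points passed a limma adjusted p of 0.05. None of the 78 ribosomal protein genes passed, and 9 of 49 ribosome biogenesis genes did, all higher; under spike-in scaling every median shown is above 0.

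A few genes were read singly. Myc, a transcription factor that drives ribosomal genes, had signals of 738 and 566 in control and 7635 and 7025 in AEPS, and rose by 2.86 ± 0.14 (SE) at a limma adjusted p of 0.010. Mdm2, the p53 inhibitor that Rpl5 and Rpl11 can bind, had 0.71 ± 0.17 (SE) at 0.084. Gapdh and Actb, often used as reference genes, had -0.49 ± 0.15 (SE) and -0.55 ± 0.23 (SE), inside the range of the ribosomal protein genes. Of the 10 macrophage markers, 1 was called lower (Fcgr1, -1.49) and 5 had changes above 0, with a median of 0.06. Of the B cell markers 1 was called higher (Cd79b, 2.59), the other measured one had -0.25 at a limma adjusted p of 0.59, and 3 of 5, Ms4a1 and Pax5 among them, were not measured.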

How the data were processed

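Total RNA was labelled with Cy3 as cRNA for 1-colour arrays, per the labels' protocols. Per the file headers, Agilent Feature Extraction 10.7.1.1 gave each spot an intensity with background subtracted and detrended within the array, and no scaling between arrays. The authors' deposited table is on a log2 scale with near-identical sorted columns, as after quantile normalization; its method and offset are not given in the sources used here. Its replicate 2 columns ranked probes as the scanner files given for replicate 3, and its replicate 3 columns matched none.

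Processed signals were taken as log2 minus each array's 75th percentile. Control spots were left out, outlier spots set to missing, spots of a probe averaged and each gene given by its brightest tested probe. Of 55681 probes, 26582 were named through RefSeq accessions, 4465 only by the scanner's annotation, and 24634 stayed unnamed. Gene symbols, probe sequences and mm9 positions stand in the slide 2 files. Groups were compared with limma 3.58.1 (lmFit, eBayes; R 4.3.3) over 25931 features with Benjamini-Hochberg adjustment at 0.05, without covariates, and the calculation was tested on simulated data. The number of arrays limits the precision. Same-numbered samples deviated together, with correlations of 0.62 on the scanner arrays by slide and 0.58, 0.38 and 0.42 in the table, above the bound of 0.1. Among differently numbered pairs in the table, control replicate 3 with AEPS replicate 2 was also above it, at 0.24. The other such pairs were negative. Values with the replicate block are therefore given where calls change. Slide and scan are the same batch.

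The members, lists and named genes were chosen with earlier results of these data known. Named were members past the threshold, the 8 highest and 8 lowest changes measured on all arrays, a fixed set of roles, and up to 4 genes per list (those past the threshold, otherwise the brightest); genes that this rule takes but the text does not name are not reported here. Rps15a, Rps24, Rps29, Rpl14, Rpl27a, Fcgr1 and Cd79b fall outside that rule and were named after their values were seen. Alternatives covered scaling, background, probe filter, probe choice, saturated spots, the authors' table, the block and each array left out; the dimmest probe, every probe as a feature and the table without each sample were added after the data were seen.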

Additional observations from a re-analysis of the deposited data

How the results depend on the processing

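The medians carry no test, and 2 arrays per group limit every value. All features called numbered 1845 in the scanner arrays without a block. Quantile normalization gave 2915, spike-in scaling 6026, normexp background 4679, no filter on dim probes 0, every probe a feature 2803 and the slide as replicate block 7715. The authors' table gave 8673, and 12927 with the replicate block. Without 1 array in turn, where the lone array left in a group is assumed to vary like the other group, the count was 7 (without control replicate 1), 55 (without control replicate 3), 818 (without AEPS replicate 1) and 540 (without AEPS replicate 3); in the table it ran from 5605 to 7466.

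Ribosomal protein genes called were 0 on the scanner arrays, beside 7.12% of all features. Fits without 1 array in turn leave 1 array in a group, so their calls for these genes are not read. The count was 3 under spike-in scaling (beside 23.2% of all features) and 1 under normexp (lower, beside 18%). It was 1 with the probe of median brightness (beside 7%) and 1 with the dimmest probe (beside 6.83%), both Rpl21, higher. With every probe a feature it was 1 (beside 9.23%), and with the slide as replicate block 9 (beside 29.8%). The table gave 8 (beside 33.4%), and 13 with the replicate block (beside 49.9%). In the table without 1 sample in turn the count ran from 4 to 9, beside 21.6% to 28.8% of all features.

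The median of the large subunit genes was 0.063 under quantile normalization, 0.33 under spike-in scaling and 0.067 in the table, also with the replicate block; without 1 array or sample in turn it ran from -0.49 to -0.16 on the scanner arrays and from 0.050 to 0.085 in the table. For the small subunit the values were 0.054, 0.34 and 0.067, also with the replicate block, and -0.22 with the dimmest probe. Its ranges without 1 array or sample were -0.47 to -0.18 and 0.062 to 0.093. The difference of the medians was 0.046 with every probe a feature and ran from -0.032 to 0.025 without 1 array or sample in turn. Rpl23, Rps27a, Rpl27a and Rps24 turned from -0.20, -0.27, -0.16 and -0.17 to calls of 0.17, 0.28, 0.24 and 0.20 in the table with the replicate block, and Rps15a from -0.01 to a call of 0.31 with and without it. Setting saturated spots to missing changed nothing, since none was flagged. The cause of these differences was not tested.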
